A study of Mus musculus with 6 samples.

Results

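The Sox transcription factor family was followed through 10 genes of 5 groups in the brains of mice with an activated human SRY transgene: Sox1 and Sox2 of group B1, Sox4 and Sox11 of group C, Sox5 and Sox6 of group D, Sox8 and Sox9 of group E, and Sox17 and Sox18 of group F. The 10 genes were listed with earlier results of these data known. Their probes were taken by gene symbol alone, as every probe of the deposited bead array table that carried one of these symbols. This gave 16 probes of 9 genes, out of 25697 probes and 18138 symbols in the table. No probe of the table carried the symbol Sox11, which was not analysed here. Whole brains of male mice at postnatal day 6 were hybridized to 6 arrays, 3 per group, from the strain labelled FVB and described in the study's methods as FVB/N. By the study's methods both groups carried the Signalox-hSRY transgene, a single-copy insertion at the H11 locus. The study elsewhere sets hSRY-ON against control littermates that lack this transgene, and the labels say only hSRY-OFF, so the genotype of the control arrays rests on the methods. In hSRY-OFF mice, as the methods define them, the transgene was unrecombined: its CAG promoter read into a DsRed2 reporter ahead of the cassette for FLAG-tagged SRY and EGFP, and that cassette was off by design. In hSRY-ON mice the loxP-flanked DsRed2 had been removed in the fertilized egg by Cre protein from the oocyte of a Ddx4-Cre mother, so that CAG, a promoter active in most cell types, drove human SRY and EGFP throughout the body. The hSRY-ON mice used for RNA were those that had not inherited Ddx4-Cre itself. The hSRY-ON mice were a model of SRY in all organs from the start of development, not of SRY in the brain alone. The study describes its samples as biological triplicates, and the litters of the individual pups were not given.

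SRY is the founding member of the Sox family, whose proteins share a DNA-binding HMG box and recognize closely related short motifs. Sox groups differ in the cells that use them: SOXB1 proteins maintain neural progenitors, SOXC proteins act in newborn neurons, SOXD proteins lack an activation domain of their own and modulate other Sox factors in oligodendrocyte precursors, cortical neurons and cartilage, SOXE proteins specify glia and, in the fetal testis, act after SRY, and SOXF proteins act in blood vessel endothelium. The study asked whether ectopic SRY could interfere with resident Sox factors at their targets. The comparisons below address a narrower question, namely whether transcripts of the Sox genes themselves, of their partners and of the cells that use them differed between the groups.

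The promoters of the members were searched for the short motif that SRY and Sox proteins share. RefSeq windows of mouse build GRCm38.p6, taken here as the 250 bases before an annotated start, were matched for 7 of the 10 genes and not for Sox9, Sox17 and Sox18. Both strands were searched for ACAAT and for ACAAAG, a pair of common forms of the Sox motif that cannot match at the same position. ACAAT was found in 27.7% of all 32851 windows, ACAAAG in 16.5%, and at least 1 of them in 38.8%. Among the members, the windows of Sox2 and Sox5 and all 6 windows of Sox6 held a match, and those of Sox1, Sox4, Sox8 and Sox11 did not. Windows of 4 genes are printed, chosen so that each Sox group with a tested gene and a window is seen once, 5′ to 3′ on the gene's strand, in lower case with the matches in capitals. Sox2 lies on chromosome 3 (chr3:34649745-34649994, plus strand), Sox4 on chromosome 13 (chr13:28953700-28953949, minus strand), Sox5 on chromosome 6 (chr6:143947107-143947356, minus strand) and Sox8 on chromosome 17 (chr17:25570687-25570936, minus strand). The Sox5 window precedes an inner start of this long gene.
Sox2: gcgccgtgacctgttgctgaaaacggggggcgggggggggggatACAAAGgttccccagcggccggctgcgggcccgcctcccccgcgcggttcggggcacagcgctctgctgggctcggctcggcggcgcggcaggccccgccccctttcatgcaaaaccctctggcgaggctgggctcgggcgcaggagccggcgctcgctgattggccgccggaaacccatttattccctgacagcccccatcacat
Sox4: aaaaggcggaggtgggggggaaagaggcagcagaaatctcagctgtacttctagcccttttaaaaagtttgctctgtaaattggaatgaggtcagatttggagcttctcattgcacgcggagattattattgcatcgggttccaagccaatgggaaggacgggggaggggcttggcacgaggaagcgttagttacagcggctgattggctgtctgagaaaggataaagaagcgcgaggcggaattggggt
Sox5: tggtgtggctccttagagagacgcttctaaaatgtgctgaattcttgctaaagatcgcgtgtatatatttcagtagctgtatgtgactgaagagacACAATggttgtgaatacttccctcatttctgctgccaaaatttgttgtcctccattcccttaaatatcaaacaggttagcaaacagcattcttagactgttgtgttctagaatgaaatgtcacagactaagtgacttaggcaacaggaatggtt
Sox8: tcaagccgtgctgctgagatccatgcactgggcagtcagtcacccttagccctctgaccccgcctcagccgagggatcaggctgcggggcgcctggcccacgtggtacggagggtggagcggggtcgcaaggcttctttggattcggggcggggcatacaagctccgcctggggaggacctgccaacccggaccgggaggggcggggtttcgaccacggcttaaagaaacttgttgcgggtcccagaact
A match is a string of letters in the window, and binding of SRY or of any Sox protein was not measured in these samples.

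The members differed first in whether they were detected. The median signal of all probes was 200 to 220 and the number of probes detected 13816 to 14377 across the arrays. Each array carries control beads that match no mouse transcript, and the detection p-value of a probe gives the share of them that reached its brightness. A probe was called detected where this was under 0.05. Of the 16 probes, 8 were detected on all 6 arrays, 2 on some arrays and 6 on none. The same 8 passed on all arrays at a stricter detection p of 0.01. The 8 were 1 probe each of Sox2, Sox4, Sox8, Sox9, Sox17 and Sox18 and 2 probes of Sox5. All 3 probes of Sox6, a SOXD gene of migrating interneurons and oligodendrocyte precursors, were detected on no array, as were 1 further probe each of Sox2, Sox5 and Sox17. The signal of these 6 probes lay between 144 and 189, so they have neither a level nor a fold change. A gene with 1 probe above background and another below, such as Sox2, counts as detected.

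**Figure D1:**
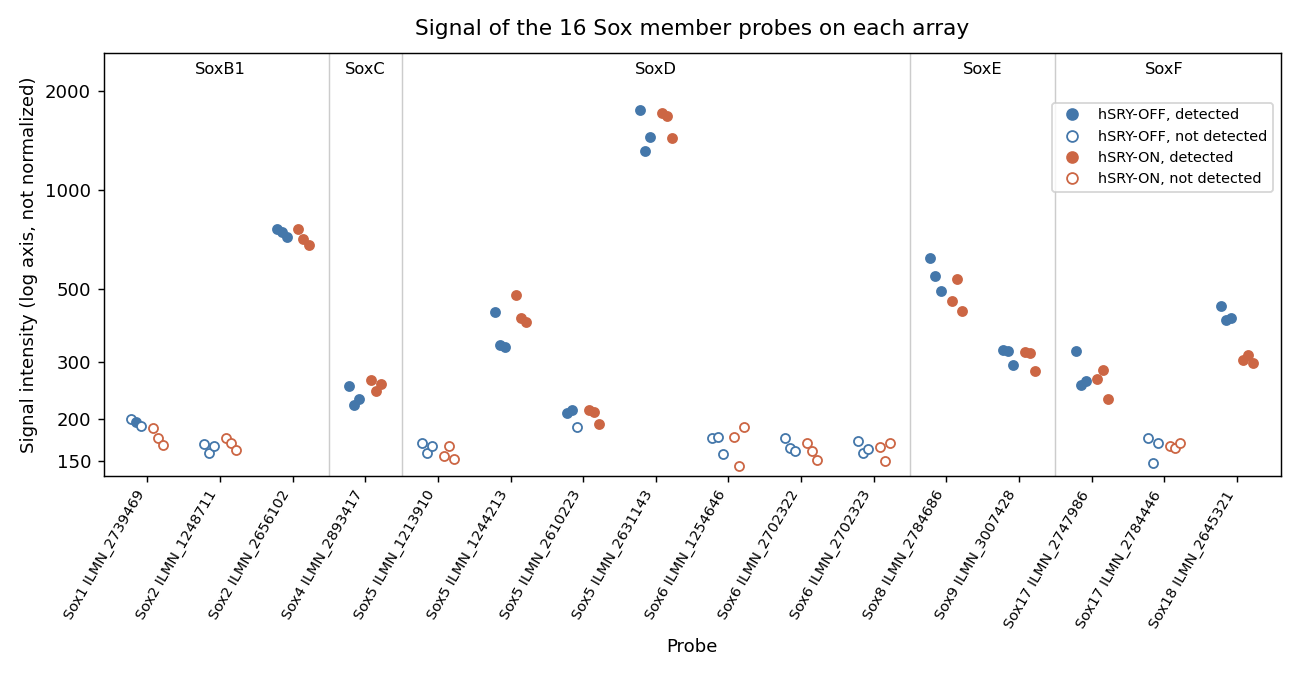
Signal intensity before normalization (vertical log axis) of the 16 probes of Sox members on the 3 hSRY-OFF and 3 hSRY-ON arrays, ordered by Sox group, with filled points where the detection p-value was under 0.05 and open points where it was not. In all, 6 probes, among them all 3 of Sox6, were open on every array, and the Sox18 points of hSRY-ON lie below those of hSRY-OFF.

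Sox18 fell in hSRY-ON and was the 1 member with a called change. For the comparison, signals were corrected for background, put on the log2 scale and quantile normalized, and probes detected on at least 3 arrays were tested with limma, with p-values adjusted by Benjamini-Hochberg over the 14215 probes tested. A change was called where the adjusted p was under 0.05. For the members, 9 probes of 7 genes were tested. Of these 1 was called lower and 0 were called higher, while over all tested probes 2.17% were called, 1.32% lower and 0.844% higher. At an unadjusted p under 0.05 there were 3 member probes, 2 higher and 1 lower, against 20.9% of all probes. The groups did not overlap for the same number, 2 with hSRY-ON above and 1 with hSRY-ON below, against 27.7% of all probes. The median log2 fold change of the 9 probes was 0.01, and that of all tested probes was 0.00, with quartiles of -0.14 and 0.14. No statement about the family as a whole rests on counts this small, and the members are described by Sox group.

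**Figure D2:**
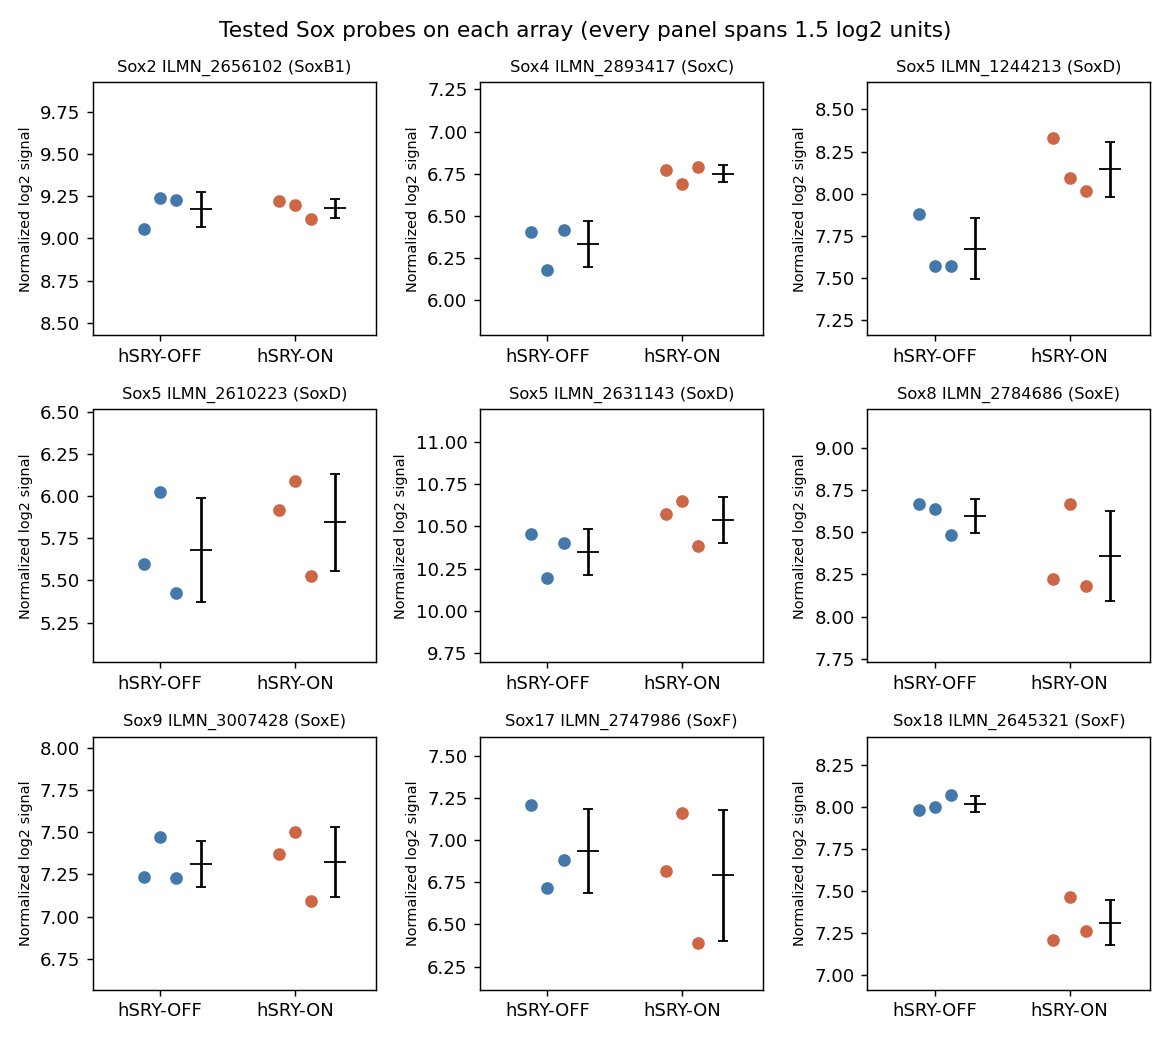
Normalized log2 signal (vertical axis) of the 9 tested probes of Sox members on each array, hSRY-OFF in blue and hSRY-ON in orange, with the mean and SD of 3 arrays in black and the same span of log2 units in every panel. Sox4, 1 of the Sox5 probes and Sox18 show no overlap between the groups.

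In group B1, Sox2 did not differ detectably. SOX2 keeps neural stem and progenitor cells undifferentiated and is also made by glia. Its probe ILMN_2656102 read 9.05, 9.24 and 9.22 on the log2 scale in hSRY-OFF replicates 1 to 3 and 9.22, 9.20 and 9.12 in hSRY-ON, so the groups overlapped. The means were 9.17 ± 0.10 and 9.18 ± 0.06 (SD, n = 3), a difference of 0.01 with a standard error of 0.09 and a 95% interval from -0.20 to 0.21 (limma, adjusted p = 0.977). The interval gives the differences compatible with these 3 arrays per group and is not a limit of detection. Sox1, a close relative made in fewer cells, was at the edge of detection, with log2 values of 5.39, 5.58 and 5.49 in hSRY-OFF and 5.22, 5.10 and 4.79 in hSRY-ON. It was detected on 1 hSRY-OFF array and no hSRY-ON array. With detection on fewer than 3 arrays, Sox1 was not tested and has no fold change. The dimmest detected probe lay between 5.38 and 5.53 on the 6 arrays.

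The neural progenitor genes, which mark cells that SOXB1 proteins maintain, held 13 tested probes of 8 genes, 2 higher and 11 lower in hSRY-ON. None was called by limma, and 4 were lower at an unadjusted p under 0.05. Their median was -0.22. Their mean level ranged from 8.33 to 8.34 in hSRY-OFF and from 8.05 to 8.28 in hSRY-ON. The 2 brightest were Vim, an intermediate filament of radial glia, at -0.13 ± 0.08 (log2 fold change ± SE, adjusted p = 0.385), and a probe of the matrix protein Tnc at -0.36 ± 0.07 (adjusted p = 0.0595). Sox2 taken against the mean of these genes on the same array differed by 0.15 between the groups (exact permutation test, two-sided, p = 0.3, where 0.1 is the smallest p that 3 arrays per group can give). In whole tissue, fewer cells of a type and less RNA per cell cannot be told apart.

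In group C, Sox4 was higher in every hSRY-ON array than in any hSRY-OFF array but was not called. SOX4 acts in newborn neurons, where it switches on genes of the neuronal cytoskeleton. Probe ILMN_2893417 read 6.41, 6.18 and 6.41 in hSRY-OFF and 6.77, 6.69 and 6.79 in hSRY-ON. The means of 6.33 ± 0.13 and 6.75 ± 0.05 (SD, n = 3) differed by 0.42 with a standard error of 0.09 and a 95% interval from 0.20 to 0.64, or 1.34-fold (limma, adjusted p = 0.0698). The raw signals, 252, 221 and 231 against 263, 244 and 257, overlapped before normalization. The probe was dim, and without background correction the difference was 0.16 (adjusted p = 0.146). When only probes detected at p under 0.01 on all 6 arrays were tested, Sox4 passed, with an adjusted p of 0.0366 over fewer probes.

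Genes of immature neurons were higher more often than lower, with 12 of 14 tested probes above 0 and a median of 0.12. There was 1 probe called higher and 1 called lower. Gap43, a growth cone protein, rose by 0.45 ± 0.08 (limma, adjusted p = 0.0479). Tead2, a transcription factor of the TEAD family that is also a feature of progenitor cells and a reported SOXC target, fell by 0.55 on the log2 scale (SE 0.07, adjusted p = 0.0263). Neither call held when any single array other than hSRY-ON replicate 3 was left out, with adjusted p of up to 0.151 for Gap43 and 0.109 for Tead2, and Gap43 was not called without that array either. Sox4 taken against the mean of the list on the same array differed by 0.31 between the groups (exact permutation test, two-sided, p = 0.1, the smallest possible, and 0.267 after adjustment over 8 such comparisons).

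In group D, the 3 tested Sox5 probes were all higher in hSRY-ON, to unequal extents, and none was called. SOX5 sets the timing of deep-layer cortical neuron production and holds back oligodendrocyte maturation together with SOX6. Probe ILMN_1244213 read 7.88, 7.57 and 7.57 in hSRY-OFF and 8.33, 8.10 and 8.01 in hSRY-ON, with all hSRY-ON arrays above. Its means of 7.68 ± 0.18 and 8.15 ± 0.16 (SD, n = 3) differed by 0.47 with a standard error of 0.13, a 95% interval from 0.17 to 0.77 and a ratio of 1.39-fold (limma, adjusted p = 0.10). It passed with no background correction (adjusted p = 0.0283), with normexp and an offset of 50 (0.0499) and with a prior variance that follows the mean level (0.0275 with the robust option, 0.0308 without). It did not pass with median scaling (0.155), without the filter on dim probes (0.157), with the replicate number as a block (0.107) or with any one array left out (0.0926 to 0.247).

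The brightest Sox5 probe, ILMN_2631143, overlapped between the groups. It read 10.45, 10.19 and 10.40 in hSRY-OFF and 10.58, 10.65 and 10.38 in hSRY-ON, and its difference was 0.19 with a 95% interval from -0.07 to 0.45 (limma, adjusted p = 0.373). Without hSRY-OFF replicate 2 the difference was 0.11. The dim probe ILMN_2610223, detected on 2 hSRY-OFF and 3 hSRY-ON arrays, differed by 0.16 with an interval from -0.30 to 0.62 (limma, adjusted p = 0.681). Its value ranged from 0.04 to 0.33 as each array was left out in turn. The intervals of the 3 probes overlap, and which Sox5 transcripts each probe reads was not examined.

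In group E, neither Sox8 nor Sox9 differed detectably. SOX8 and SOX9 share glial roles with SOX10, which was not analysed here, and SOX9 is the main effector of SRY in the fetal testis. Sox8 probe ILMN_2784686 read 8.67, 8.64 and 8.48 in hSRY-OFF and 8.23, 8.67 and 8.18 in hSRY-ON. Replicate 2 of hSRY-ON was level with the highest hSRY-OFF array, while the other two lay below all of them. The difference was -0.24 with a standard error of 0.14 and a 95% interval from -0.57 to 0.10 (limma, adjusted p = 0.384). Single arrays moved it, to -0.39 without hSRY-ON replicate 2 (adjusted p = 0.125) and to -0.15 without hSRY-ON replicate 3 (adjusted p = 0.589). Sox9 probe ILMN_3007428 read 7.24, 7.47 and 7.23 in hSRY-OFF and 7.37, 7.50 and 7.09 in hSRY-ON. Its means of 7.31 ± 0.14 and 7.32 ± 0.21 (SD, n = 3) differed by 0.01 with an interval from -0.29 to 0.31 (limma, adjusted p = 0.974).

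Some genes of the glial cells that use SOXE proteins fell. Among oligodendrocyte precursor genes, 5 of 13 tested probes were higher and 8 lower, with a median of -0.07. Most of the higher probes were of 1 gene, Epn2, so these counts weigh that gene heavily. At an unadjusted limma p under 0.05, 5 probes were lower and 0 higher. The mean level over the 8 tested genes ranged from 9.21 to 9.24 in hSRY-OFF and from 8.98 to 9.11 in hSRY-ON. The 1 called probe was of Gpr17, a receptor of precursors that are about to differentiate. It fell by 0.73 on the log2 scale (SE 0.10, limma, adjusted p = 0.0263). Among myelin genes, 14 of 15 tested probes were lower, 4 were called lower and the median was -0.66. Among the called probes were 2 of Mobp (ILMN_3024681 at -1.05 ± 0.10 and ILMN_1223628 at -1.36 ± 0.22) and 1 of Ugt8a, which makes the myelin lipid galactosylceramide, at -0.78 ± 0.13. The other Mobp probe, ILMN_3097381, was not called at -0.98 ± 0.21 (adjusted p = 0.0637). The mean level of the myelin genes ranged from 10.26 to 10.71 in hSRY-OFF and from 9.78 to 9.85 in hSRY-ON.

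Astrocyte genes lay on both sides of 0, with 6 of 13 tested probes higher and 7 lower and a median of -0.04. At an unadjusted limma p under 0.05, 4 were lower and 1 higher. The mean level over genes was lower in hSRY-ON, from 10.13 to 10.15, than in hSRY-OFF, from 10.30 to 10.34. Aqp4, the water channel of astrocyte end feet, fell by 0.81 on the log2 scale (SE 0.11, limma, adjusted p = 0.0275). Gfap, the astrocyte intermediate filament, fell by 0.83 (SE 0.12, adjusted p = 0.0308). The called glial probes lost their calls when any single array other than hSRY-ON replicate 3 was left out, with adjusted p of up to 0.119, and Ugt8a was not called without that array either. Against the mean of the myelin genes on the same array, Sox8 differed by 0.39 between the groups (exact permutation test, two-sided, p = 0.2), and against the oligodendrocyte precursor genes by -0.05 (exact permutation p = 0.9). Sox9 differed by 0.20 against the astrocyte genes (exact permutation p = 0.2). Benjamini-Hochberg adjustment over the 8 comparisons of this kind made here put the smallest of their p-values at 0.267.

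Cartilage matrix genes that SOX9 and SOXD proteins activate together had 8 of 10 tested probes lower in hSRY-ON, with a median of -0.41. The 1 called probe was Col2a1 probe ILMN_2759144, which fell by 0.49 on the log2 scale (SE 0.09, limma, adjusted p = 0.0479). It was not called with any one array left out (adjusted p from 0.0704 to 0.134). A second Col2a1 probe, ILMN_2759142, was at -0.64 ± 0.12 (adjusted p = 0.0522). Meningeal fibroblast genes, which share collagens with cartilage, lay on the same side, with 7 of 8 tested probes lower, a median of -0.25, and mean levels from 9.45 to 9.51 in hSRY-OFF and from 8.84 to 9.33 in hSRY-ON. None of these was called, 4 were lower and 1 higher at an unadjusted p under 0.05, and the brightest were Igf2 at -0.10 ± 0.08 (adjusted p = 0.500) and Dcn at -0.25 ± 0.11 (adjusted p = 0.239). Their part in the cartilage gene result was not tested.

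Genes of the testis programme in which SRY and SOXE proteins act gave no called change. Of 10 listed genes, 8 were in the table and 4 were tested, 2 higher and 2 lower, with a median of -0.03 and 1 higher at an unadjusted p under 0.05. The 2 brightest were Ptgds, a prostaglandin synthase that is abundant in the choroid plexus and meninges of any brain, at 0.35 ± 0.11 (limma, adjusted p = 0.151), and Cbln4 at 0.03 ± 0.10 (adjusted p = 0.904). Amh, Dhh, Gata4 and Nr0b1 were in the table but did not pass the detection filter. Choroid plexus genes lay on the same side as Ptgds, with 10 of 11 tested probes higher, a median of 0.37, and mean levels from 8.43 to 8.63 in hSRY-OFF and from 8.61 to 8.93 in hSRY-ON. The 1 called was the water channel Aqp1, which rose by 0.67 ± 0.11 (adjusted p = 0.0348, and up to 0.113 with single arrays other than hSRY-ON replicate 3 left out). Their part in the Ptgds value was not tested.

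In group F, Sox18 fell and Sox17 did not differ detectably. SOX18 and SOX17 act with SOX7 in endothelial cells, where they shape arterial and lymphatic fate and the maturation of vessels. The raw signal of Sox18 probe ILMN_2645321 was 443, 401 and 408 in hSRY-OFF and 303, 315 and 296 in hSRY-ON, detected on all arrays. After normalization it read 7.98, 8.0 and 8.07 in hSRY-OFF and 7.21, 7.47 and 7.26 in hSRY-ON, so that the groups were separate both before and after normalization. The means of 8.02 ± 0.05 and 7.31 ± 0.14 (SD, n = 3) differed by -0.70 with a standard error of 0.09 and a 95% interval from -0.92 to -0.48, which is a level 38.6% lower (limma, adjusted p = 0.0263). By unadjusted p it stood at place 63 among all tested probes.

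The Sox18 difference was -0.40 without background correction (adjusted p = 0.00192), -0.54 with normexp and an offset of 50 (0.00680), -0.72 with median scaling (0.0279), -0.71 with cyclic loess (0.0280) and -0.69 with array weights (0.0228). It missed the threshold without hSRY-OFF replicate 1 (adjusted p = 0.0921), 2 (0.109) or 3 (0.0906), without hSRY-ON replicate 1 (0.0843) or 2 (0.0614), and with the replicate number as a block (0.0989). Without hSRY-ON replicate 3 it passed (0.0365). The unadjusted p without any one array was at most 0.000837, and the number of calls over all probes fell to 0 or 1 in the same 5 settings, against 417 without hSRY-ON replicate 3.

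Sox17 probe ILMN_2747986 read 7.21, 6.72 and 6.88 in hSRY-OFF and 6.82, 7.16 and 6.39 in hSRY-ON. The groups overlapped over most of their range. The difference was -0.15 with a standard error of 0.21 and a 95% interval from -0.64 to 0.35 (limma, adjusted p = 0.739), whose lower end lies near the value of Sox18. Without hSRY-ON replicate 3 the difference turned to 0.05. That the pair of SOXF genes differed from each other was not tested.

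Endothelial genes were lower more often than higher, with 10 of 15 tested probes below 0 and a median of -0.19. At an unadjusted p under 0.05, 6 were lower and 3 higher. The 1 called was Vwf, the clotting factor carrier of endothelial granules, which rose by 1.75 ± 0.18 (limma, adjusted p = 0.0240, and up to 0.108 with single arrays other than hSRY-ON replicate 3 left out). The other genes with an unadjusted limma p under 0.05, a choice made after their values were seen, lay on both sides of 0 without a call. The receptors Tek and Tie1 were at -0.53 ± 0.13 (adjusted p = 0.0861) and -0.63 ± 0.21 (adjusted p = 0.160), and the tight junction protein Cldn5 was at -0.42 ± 0.13 (adjusted p = 0.126). Slco1c1 was at -0.36 ± 0.09 (adjusted p = 0.0801), Emcn at -0.35 ± 0.10 (adjusted p = 0.123) and Cdh5 at -0.35 ± 0.11 (adjusted p = 0.151). The coreceptor Eng was at 0.39 ± 0.11 (adjusted p = 0.122) and the VEGF receptor Flt1 at 0.49 ± 0.15 (adjusted p = 0.131). The mean level of the list ranged from 8.83 to 8.90 in hSRY-OFF and from 8.80 to 8.91 in hSRY-ON. With Vwf left out, a choice made after its value was seen, these ranges were 8.87 to 8.94 and 8.67 to 8.83.

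Taken against the mean of the endothelial genes on the same array, Sox18 differed by -0.69 between the groups (exact permutation test, two-sided, p = 0.1, the smallest possible, and 0.267 after adjustment over the 8 comparisons of this kind). Such a test cannot pass the threshold with 3 arrays per group. With Vwf left out of the list the difference was -0.53 (exact permutation p = 0.1). The same measure for Sox17 was -0.13 (exact permutation p = 0.8). Pericyte genes, which mark the other cells of the vessel wall, had 2 of 6 tested probes higher and 4 lower, none called, 1 lower at an unadjusted p under 0.05 and a median of -0.09. Their 2 brightest were Rgs5 at -0.31 ± 0.12 (limma, adjusted p = 0.213) and Cspg4 at -0.07 ± 0.09 (adjusted p = 0.683).

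**Figure D3:**
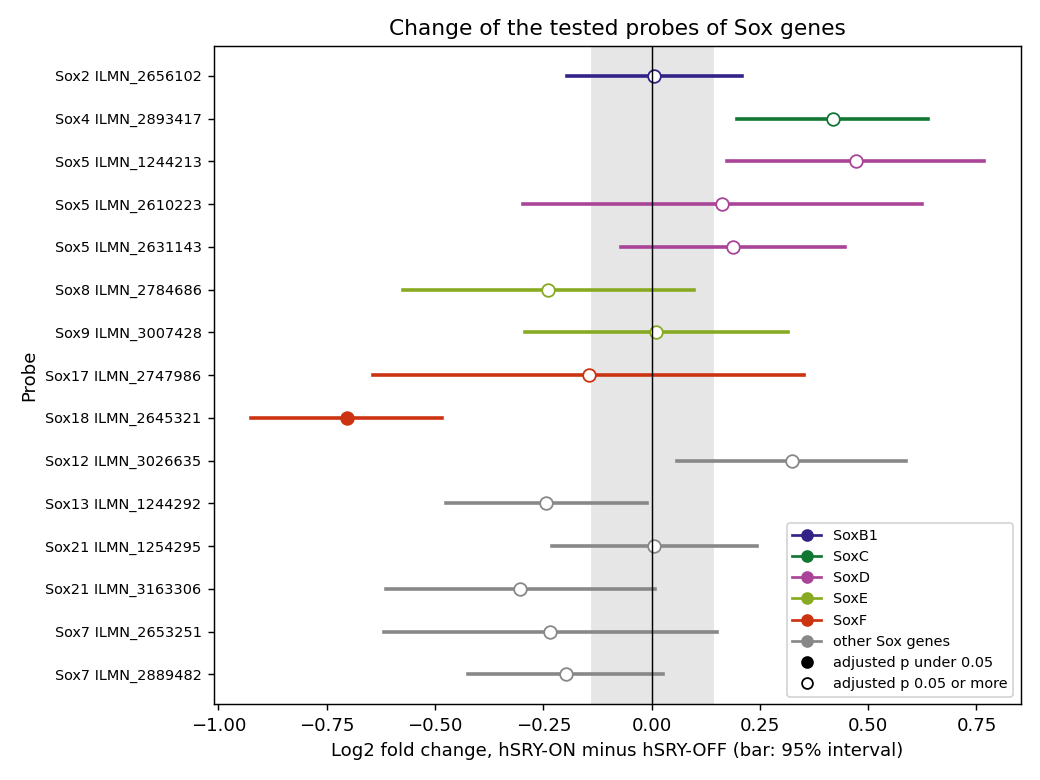
Log2 fold change, hSRY-ON minus hSRY-OFF (horizontal axis), with its 95% interval for the 15 tested probes of Sox genes, coloured by group, filled where the adjusted p was under 0.05, with the quartiles of all tested probes shaded. Sox18 at -0.70 was the 1 filled point and lay below 0 with its interval, as did Sox13. Sox4, 1 Sox5 probe and Sox12 lay above 0 with their intervals, and the intervals of the other probes, those of Sox17 and Sox7 included, held 0.

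Other Sox genes were listed for comparison and gave no called change. Of 10 genes, 8 were in the table with 13 probes, and 6 probes of 4 genes were tested, 2 higher and 4 lower with a median of -0.22. There were 2 with an unadjusted p under 0.05. Sox12, the third SOXC gene, read 7.96, 7.88 and 7.82 in hSRY-OFF and 8.42, 8.13 and 8.07 in hSRY-ON, all above, with a difference of 0.32 and a 95% interval from 0.06 to 0.59 (limma, adjusted p = 0.164). The difference was 0.21 without hSRY-ON replicate 1 and 0.21 without background correction. The unadjusted limma p of Sox12 was above 0.05 without that array (0.0548) and without hSRY-OFF replicate 2 (0.0562) or 3 (0.0706). Sox13, a SOXD gene, read 6.87, 6.71 and 6.59 against 6.50, 6.55 and 6.39, with a difference of -0.24 and a standard error of 0.10 (adjusted p = 0.223). Without background correction the difference of Sox13 was -0.10 (limma, adjusted p = 0.410).

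Sox7, the third SOXF gene, had differences of -0.20 ± 0.10 (limma, adjusted p = 0.286) and -0.23 ± 0.16 (adjusted p = 0.458) at its probes ILMN_2889482 and ILMN_2653251. The second ranged from -0.36 without hSRY-OFF replicate 2 to -0.10 without hSRY-ON replicate 2, and was -0.12 without hSRY-OFF replicate 1. Sox21, a SOXB2 gene that opposes SOXB1 activity, differed by 0.01 ± 0.10 (limma, adjusted p = 0.981) at probe ILMN_1254295 and by -0.30 ± 0.13 (adjusted p = 0.248) at ILMN_3163306. Sox3, Sox15, Sox30 and mouse Sry were detected on no array. Sox10 and Sox14 were not analysed here, nor was a probe for the human transgene, so the arrays give no reading of SRY itself in either group.

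Partner factors, with which Sox proteins or SRY bind DNA or which modify their activity, had no called member. Of 19 tested probes of 12 genes, 10 were higher and 9 lower, with a median of 0.00. None was called by limma, and 4 were lower at an unadjusted p under 0.05. The 2 brightest were Tcf4, a basic helix-loop-helix factor, at 0.01 ± 0.08 (adjusted p = 0.958) and Trim28, a corepressor that SRY can recruit, at -0.01 ± 0.07 (adjusted p = 0.968). The POU factors that pair with Sox proteins in neural cells were picked out after the values were seen. Pou3f3 was at -0.32 ± 0.11 (adjusted p = 0.155), Pou3f4 at -0.18 ± 0.21 (adjusted p = 0.665) and Pou3f1 at 0.06 ± 0.09 (adjusted p = 0.765).

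Marker genes of cells that are in or near whole brain tissue give the setting for these values. Mitosis genes, a list that follows a pathway the study picked from these arrays, had 10 of 10 tested probes lower, 6 called lower and a median of -0.95. Their mean level ranged from 8.41 to 8.62 in hSRY-OFF and from 7.39 to 7.93 in hSRY-ON. The 4 with the smallest adjusted p were Plk1, a mitotic kinase, at -0.997 ± 0.14, the DNA topoisomerase Top2a at -1.08 ± 0.16, the spindle protein Birc5 at -0.91 ± 0.15 and the checkpoint kinase Bub1b at -0.74 ± 0.13 (limma, adjusted p from 0.0294 to 0.0413, and up to 0.127 with single arrays other than hSRY-ON replicate 3 left out). The part of dividing cells in the values of progenitor genes and of Sox2 was not tested. Neuron genes had 3 tested probes, all lower and none called or under an unadjusted p of 0.05, with a median of -0.12, and were bright in both groups, as Syp at 14.45 ± 0.02 and 14.33 ± 0.13 (SD, n = 3) and Syt1 at 12.23 ± 0.13 and 12.17 ± 0.12 show. Erythroid genes had 2 of 5 tested probes higher and 3 lower, none called or under an unadjusted p of 0.05, with a median of -0.08 (Hba-a1 at -0.08 ± 0.11 and Alas2 at -0.27 ± 0.21).

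**Figure D4:**
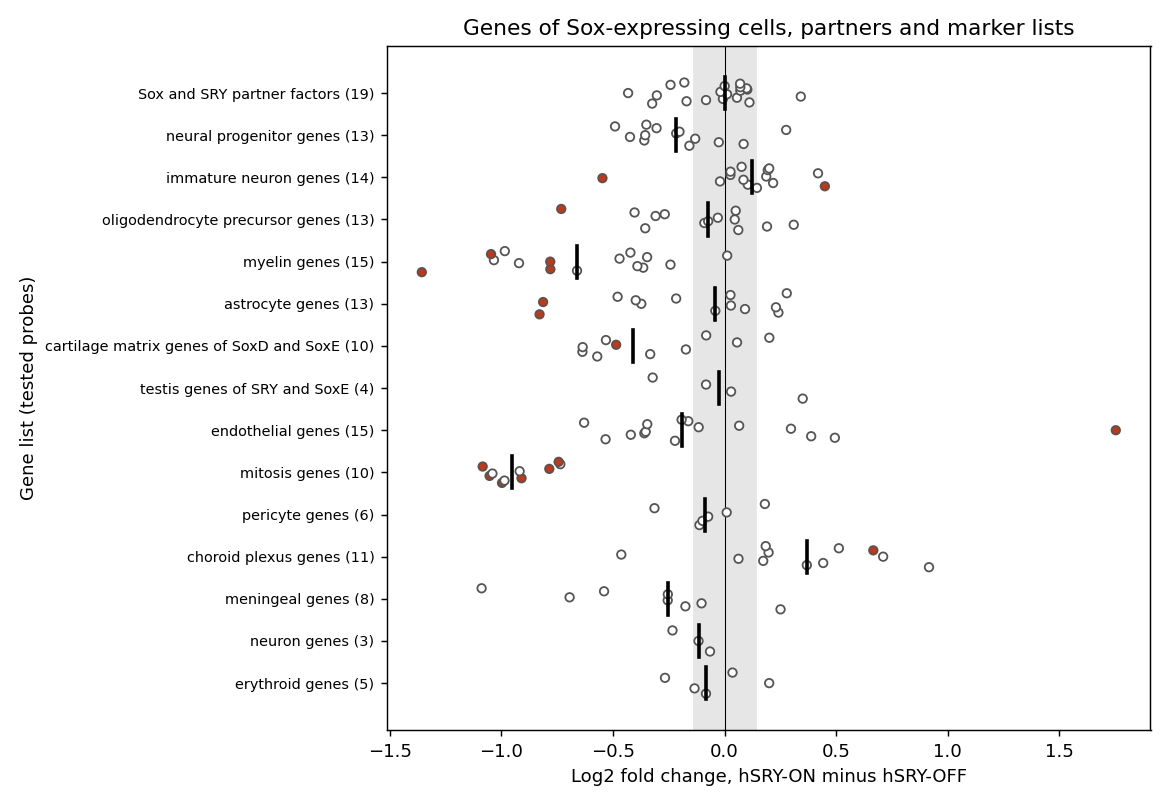
Log2 fold change, hSRY-ON minus hSRY-OFF (horizontal axis), of each tested probe in the partner, Sox-related and marker gene lists (rows, with the number of tested probes), filled red where the adjusted p was under 0.05, with a black bar at the list median and the quartiles of all probes shaded; vertical scatter within a row has no meaning. Medians ran from -0.95 for mitosis genes to 0.37 for choroid plexus genes, and partner factors lay at 0.00.

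Across the settings tried, the difference of Sox4 lay between 0.16 and 0.46, that of Sox5 probe ILMN_1244213 between 0.29 and 0.57 and that of Sox18 between -0.78 and -0.40. The constant direction of these probes does not measure stability, since leaving out 1 array cannot turn a probe whose groups do not overlap, and the filters, priors, block and threshold do not change the estimate.

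**Figure D5:**
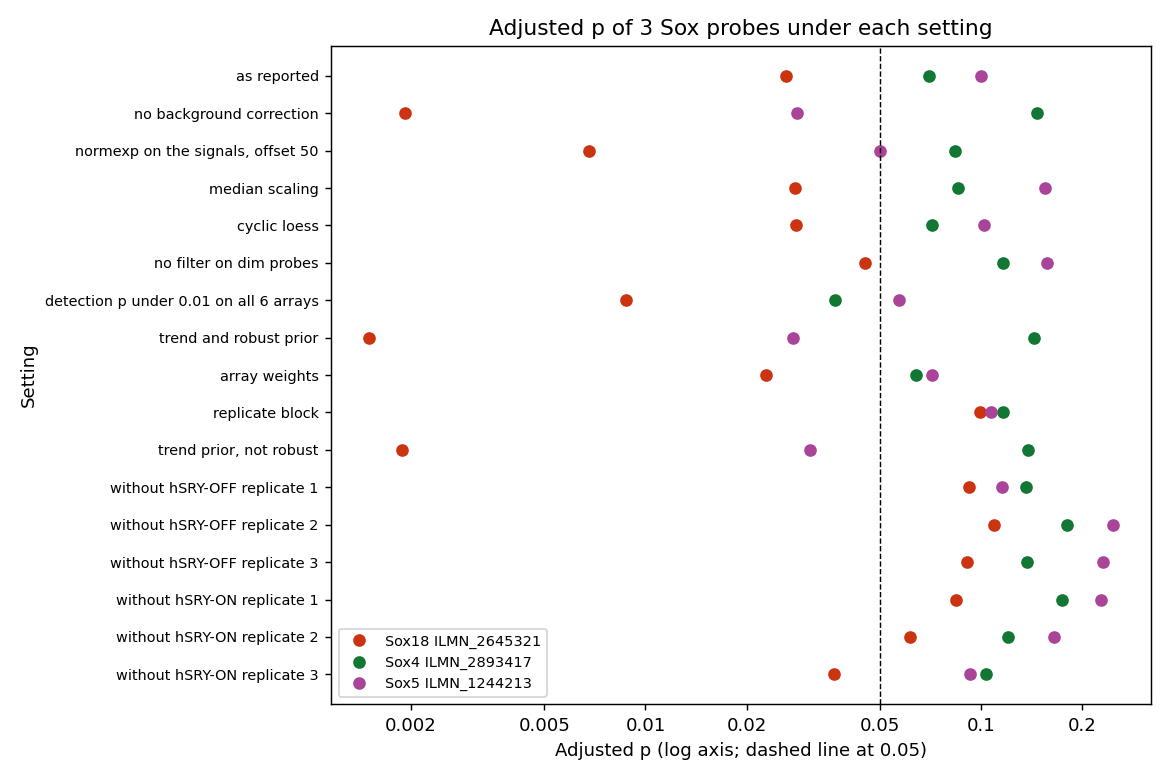
Adjusted p on a log axis (horizontal) of Sox18, Sox4 and Sox5 probe ILMN_1244213 under the reported setting and the alternatives (rows), with the threshold of 0.05 dashed. Sox18 lies left of the line in most settings and right of it in 5 of the 6 settings that leave out an array and with the replicate block, and Sox4 lies right of it in all but 1.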

How the data were processed

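Whole brain RNA of 3 hSRY-OFF and 3 hSRY-ON mice was amplified to biotin-labelled cRNA and hybridized to Illumina MouseRef-8 v2.0 bead arrays. The authors deposited a bead signal intensity and a detection p-value for each probe and array, on a linear scale and not normalized. The submitters' processing notes name limma, and TCC, the package named in the study's methods, was not used here. No genome build was given for the table in the sources used here.

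Analysis used limma 3.58.1 (R 4.3.3). Intensities were corrected with normexp (offset 16), with the background estimated through the detection p-values, then put on the log2 scale and quantile normalized, which makes dim probes more variable. A probe entered the fit (lmFit and eBayes, two-sided, group only) if its detection p was under 0.05 on at least 3 of 6 arrays. Adjustment was by Benjamini-Hochberg over all tested probes, and calls were made where the adjusted p was under 0.05. Adjusted p are from this fit unless another is named, values after ± are SE for differences and SD for levels, and intervals are at 95%. A single value compared between groups was given an exact permutation test. Probes of 1 gene were kept apart, and levels of different probes were not compared, since brightness differs between probes. Where a Sox probe was taken against a list's mean on the same array, only the change of that difference between the groups was read. The number of arrays limits the precision. The quantile normalization and the limma fit were tested on simulated data with independent noise on each array. The background correction, permutation tests and motif search were not. Alternatives were other background corrections, scalings, filters, priors, weights and thresholds, a replicate block and leaving out each array.

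The text covers every probe of the 9 Sox genes in the table, by identifier where it was tested and by gene where it was not, and, from each list, the called probes (up to 4 by adjusted p) or, where there were none, the 2 brightest tested probes. Some genes that this rule names are not reported here. The Sox members and all lists were chosen with earlier results of these data known, and the list values are a description, with no test of the list. Promoter sequences are from RefSeq (GRCm38.p6). Python 3.11.15 and matplotlib 3.10.9 were used for the figures.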

Additional observations from a re-analysis of the deposited data

How the results depend on the processing

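The 308 calls over all probes became 1317 without background correction, 860 with normexp at an offset of 50, 123 without the filter on dim probes, 705 with detection at 0.01 on all arrays, 1447 with a trend and robust prior, 1434 with the trend alone (added after the data were seen), 480 with array weights and 999 at a threshold of 0.1. Leaving out 1 array gave 0 to 417. The 1 called Sox probe became 2 without background correction, with normexp at 50, with the strict detection filter and with either trend prior, 3 at the threshold of 0.1, and 0 to 1 without 1 array. Group medians moved beyond the replicate spread to 0.16 (SoxC) and -0.23 (SoxF) without background correction. SoxD ranged from 0.13 to 0.33 as each array was left out, highest without hSRY-OFF replicate 2. Only tested member probes enter these medians, which are 1 of Sox4 for SoxC and 3 of Sox5 for SoxD. Sox7, Sox12 and Sox13 are not in them. The SoxE median of -0.11 ranged from -0.24 without hSRY-ON replicate 2 to -0.01 without hSRY-ON replicate 3. Signs turned for these probes, none of them called: Sox2 (-0.0058 by median scaling, -0.0522 to 0.0399 without 1 array), Sox9 (-0.0788 to 0.12 without 1 array), Sox17 (-0.33 to 0.0543, turned without hSRY-ON replicate 3) and Sox21 probe ILMN_1254295 (-0.0156 by median scaling, -0.0071 with array weights, -0.0731 to 0.0931 without 1 array). No sign turned for the other tested probes of Sox genes, though only the background corrections, scalings, array weights and left-out arrays could change an estimate. The causes were not tested. Dim probes, among them Sox1 and Sox6, set the limit of what the signal over background can show.

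Replicate numbers were shared between groups, and same-numbered arrays deviated together only weakly (correlations 0.0404, 0.0294 and 0.0251, none over 0.1), so the numbers were not taken as pairs. As a hint from the data only, every array correlated best with its own number. With the replicate block, limma called 0 of 14215 probes and 0 Sox members (2906 and 3 had an unadjusted p below 0.05), and Sox18 had an adjusted p of 0.0989.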
